A study of Rattus norvegicus with 6 samples.

Results

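The FoxP genes Foxp1, Foxp2, Foxp3 and Foxp4 encode a branch of the forkhead family of transcription factors. All probes whose transcript identifier belongs to one of these 4 genes were taken, which gave 2 probes of the 30367 distinct probes on the array, 1 for Foxp1 and 1 for Foxp3. No probe could be matched to Foxp2 or Foxp4 by its identifier, and these genes were not analysed here. Brain RNA came from 6 male rats of Wistar background aged 15 weeks that had not been exercised, 3 of the SPORTS line, a hyperactive mutant line, and 3 wild type. Each rat gave 1 single-colour array labelled with Cy3, and the labels name no brain region, so the values are averages over an unspecified mixture of brain cells. The members were chosen by the difference in normalised Foxp3 signal between these groups, with the relatives of Foxp3 added, so the differences of Foxp1 and Foxp3 between SPORTS and wild type are described without a test.

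FoxP proteins bind DNA through a forkhead domain, pair with one another through a leucine zipper and mostly act as repressors. Foxp3 is the defining factor of regulatory T cells, which restrain immune responses, and its loss causes autoimmunity. Foxp1, Foxp2 and Foxp4 are made in neurons. Foxp1 is abundant in projection neurons of the striatum and in the cortex, and Foxp2, known for its role in speech and vocal learning, is found in striatum, deep cortex, thalamus and Purkinje cells.

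Signals are given as normalised log2 values, in which 0 is the 75th percentile of the array's processed signal (1530 to 1628 intensity units on the 6 arrays). Between 20325 and 23261 probes per array were well above background by the scanner software's flag. Of all probes, 20659 were bright enough to be tested, both FoxP probes among them, and they represented 11033 named genes. Precision is limited by the 3 arrays per group. The 14 tested markers of neurons, astrocytes and oligodendrocytes, such as the synaptic gene Snap25 and the myelin gene Mbp, were above background on all arrays. Of these markers 5 were higher and 2 lower in SPORTS in limma's moderated test, which was 50% called, beside 24.3% of all tested genes. Their median was 0.06, beside 0.01 over all genes tested. The astrocyte genes Aqp4 (0.57 ± 0.08, SE) and Aldh1l1 (0.31 ± 0.04), the myelin gene Mog (0.28 ± 0.04) and the neurofilament gene Nefl (0.20 ± 0.05) rose, and the neuronal genes Syt1 (-0.19 ± 0.04) and Tubb3 (-0.24 ± 0.05) fell. The astrocyte genes Gfap (0.32 ± 0.11), Slc1a2 (-0.12 ± 0.05) and Slc1a3 (-0.01 ± 0.04) did not pass. Wild type replicates 1 and 2 lay in row 1 of the slide and the other 4 arrays in row 2, so a row-blocked fit, in which the slide row is a block, compares the 3 SPORTS arrays with 1 wild type array. Of the brain markers that fit called 0, and 3 were called without wild type replicate 1 or 3, 4 without SPORTS replicate 2 and 3 when dim probes were kept. SPORTS replicate 1 stood apart on the Purkinje cell genes Pcp2 (-0.51, against -3.75 to -3.54 in wild type) and Car8 (0.34, against -1.59 to -1.45).

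Foxp3 was 11.7-fold higher in SPORTS. Its probe, A_64_P048117 for transcript NM_001108250, had a processed signal of 43.7, 53.0 and 68.7 intensity units in wild type replicates 1 to 3 and of 603, 639 and 620 in SPORTS replicates 1 to 3, each the mean of 2 spots. The SPORTS arrays lay close together and far above every wild type array. The 2 spots of an array differed by a factor of at most 1.32, and all 12 spot readings were flagged well above background. Normalised, the signal was -5.19, -4.94 and -4.53 in wild type and -1.39, -1.31 and -1.31 in SPORTS. The group means were -4.89 ± 0.33 (SD, n = 3) and -1.33 ± 0.05 (n = 3), a difference of 3.55 ± 0.16 (SE). Of the 11033 tested genes, 9 had a larger fitted rise. The wild type signal was dim, with a spot brightness of 85.0 to 121 before background subtraction beside a local background of 34.5 to 47.0. With normexp background correction, which adds an offset, the difference was 2.53 ± 0.06. In the row-blocked fit, where the 1 wild type array is the brightest of its group, it was 3.20 ± 0.11, and with any 1 array left out it was between 3.403 and 3.73.

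Foxp1 was lower in SPORTS by a much smaller factor. Its probe, A_44_P1025454 for transcript NM_001034131, had a processed signal of 15860, 15020 and 15830 intensity units in the wild type replicates and of 11050, 10680 and 9952 in the SPORTS replicates. All wild type arrays were above all SPORTS arrays, far from both background and saturation. The normalised signal was 3.33, 3.21 and 3.32 in wild type and 2.81, 2.76 and 2.70 in SPORTS. The means were 3.28 ± 0.07 (SD, n = 3) and 2.76 ± 0.05 (n = 3), so that the difference was -0.53 ± 0.05 (SE), a 1.44-fold lower signal. Over all alternatives the difference ran from -0.57 to -0.50, and it was -0.55 without SPORTS replicate 1. Of the 11033 tested genes, 3.03% had a larger fitted fall. The Foxp1 transcript is 1 of 36 and the Foxp3 transcript 1 of 5 that RefSeq lists for these genes, and 1 probe per gene does not separate isoforms.

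**Figure D1:**
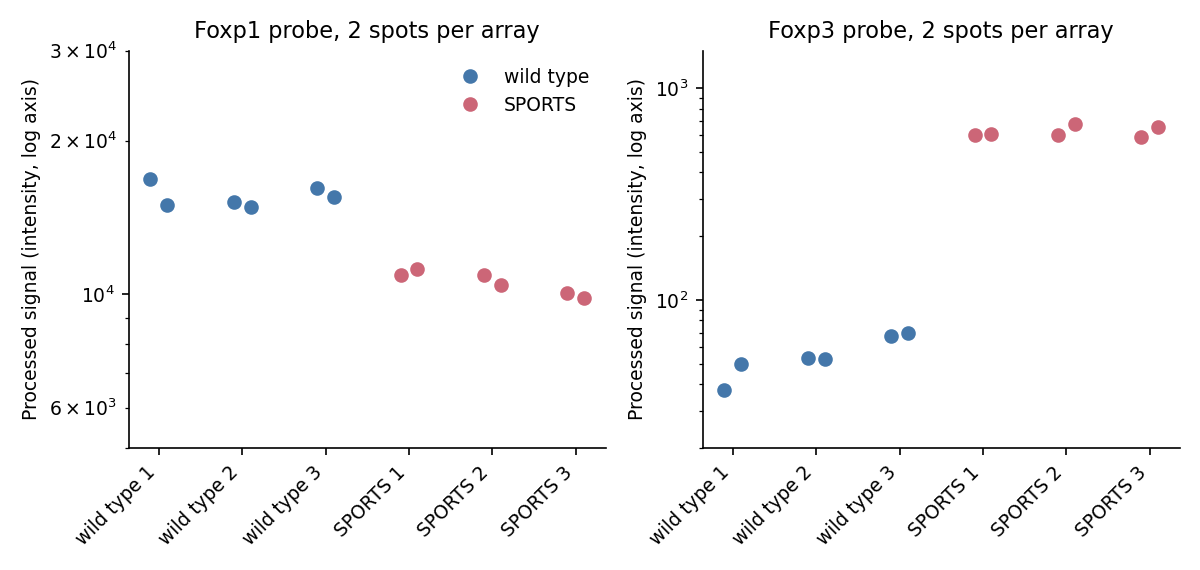
Processed signal of the Foxp1 and Foxp3 probes on each array, with 1 point per spot, 2 spots per array and logarithmic vertical axes that differ between the panels. Foxp1 lies between 14850 and 16790 in wild type and between 9845 and 11200 in SPORTS, and Foxp3 between 37.8 and 69.7 in wild type and between 585 and 676 in SPORTS.

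The 2 groups did not overlap for Foxp3, which was higher in SPORTS, nor for Foxp1, which was lower. Over all tested probes, 21.4% had every SPORTS array above every wild type array and 20.5% every SPORTS array below. Non-overlapping groups were thus frequent on these arrays (41.9% in either direction), and the count of 2 of 2 is given as a description. At a limma adjusted p under 0.05, 21.1% of tested probes were called, 11.1% higher and 10.1% lower in SPORTS.

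The start regions of both genes are shown because the members differ in direction and each region carries the letters of a forkhead motif. The window of Foxp4, a gene without a matched probe, held neither of the motifs marked below and is not shown. The windows run from 250 bases before to 50 after an annotated start, read 5′ to 3′ along the gene, from RefSeq on build GRCr8. Both genes lie on the minus strand, with the windows at chr4:133353231-133353530 for Foxp1 and chrX:17595651-17595950 for Foxp3. In both the start used lies inside the span of the gene, 455367 bases from its upstream edge in Foxp1 and 5481 in Foxp3. Longer transcripts thus start elsewhere. Capitals mark the forkhead core TGTTTA and the TATA box letters TATAAA on either strand.
Foxp3: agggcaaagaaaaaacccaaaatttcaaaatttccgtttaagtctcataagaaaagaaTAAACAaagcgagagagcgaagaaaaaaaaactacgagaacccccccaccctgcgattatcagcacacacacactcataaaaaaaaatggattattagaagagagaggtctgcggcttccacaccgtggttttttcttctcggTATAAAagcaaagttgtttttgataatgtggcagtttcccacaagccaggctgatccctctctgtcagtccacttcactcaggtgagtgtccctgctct
Foxp1: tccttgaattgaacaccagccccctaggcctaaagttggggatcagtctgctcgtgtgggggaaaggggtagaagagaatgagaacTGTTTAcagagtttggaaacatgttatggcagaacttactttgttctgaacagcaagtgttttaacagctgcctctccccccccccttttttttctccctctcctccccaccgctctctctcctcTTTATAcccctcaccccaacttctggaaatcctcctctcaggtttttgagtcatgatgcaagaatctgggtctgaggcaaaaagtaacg
In Foxp3, TGTTTA was found on the opposite strand (TAAACA, first base at position -192 from the start) and TATAAA on the same strand (position -49). In Foxp1, TGTTTA was found on the same strand (position -164) and TATAAA on the opposite strand (TTTATA, position -39). Of 33469 RefSeq windows of the same length, 13.7% held TGTTTA and 14.2% held TATAAA on either strand. Foxp3 had a GC content of 42.0% and 8 CG pairs and Foxp1 48.3% and 3, beside medians of 51.7% and 7 over all windows.

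Neighbouring genes were compared to show whether Foxp3 differed alone in its stretch of the X chromosome. The next gene, Ccdc22, which encodes a protein of endosomal sorting, had means of 0.14 ± 0.04 (SD, n = 3) in wild type and 0.23 ± 0.03 in SPORTS, and its difference of 0.08 ± 0.04 (SE) did not pass limma's test (adjusted p = 0.176). On the other side the nearest tested gene was Clcn5, a chloride transporter gene, at 0.22 ± 0.11 (adjusted p = 0.232). Among the 10 genes on each side in RefSeq order 7 were tested, of which 1 rose and 1 fell, beside 24.3% of all tested genes called (12.9% higher, 11.4% lower). Plp2, a membrane protein gene, rose by 0.54 ± 0.07 (adjusted p = 0.00518), a call that the row-blocked fit did not make (adjusted p = 0.0551, and 0.000500 to 0.0551 over all alternatives). Magix, a gene of a PDZ domain protein, fell by 1.23 ± 0.11 (adjusted p = 0.00155), or by 0.56 with normexp correction, with 2 of 3 SPORTS arrays above background. When signal above background was required of all 6 arrays, Magix was not tested and 1 gene was called, as in the row-blocked fit. All 7 differences lay between -1.23 and 0.54, beside 3.55 for Foxp3. Of the 3 tested neighbours of Foxp1, limma called none and 0 had an unadjusted p under 0.05. The nearest were Mitf, a transcription factor gene, at -0.16 ± 0.08 and the translation factor gene Eif4e3 at 0.21 ± 0.10. Without wild type replicate 1, Eif4e3 was called (adjusted p = 0.0267, the lowest of the alternatives, which reached 0.371). Beside Foxp4, 1 of 6 tested genes, the receptor adaptor gene Frs3, rose (0.52 ± 0.04, and 0.28 with normexp correction), and beside Foxp2, 0 of 3 were called by limma, with 0 at an unadjusted p under 0.05.

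**Figure D2:**
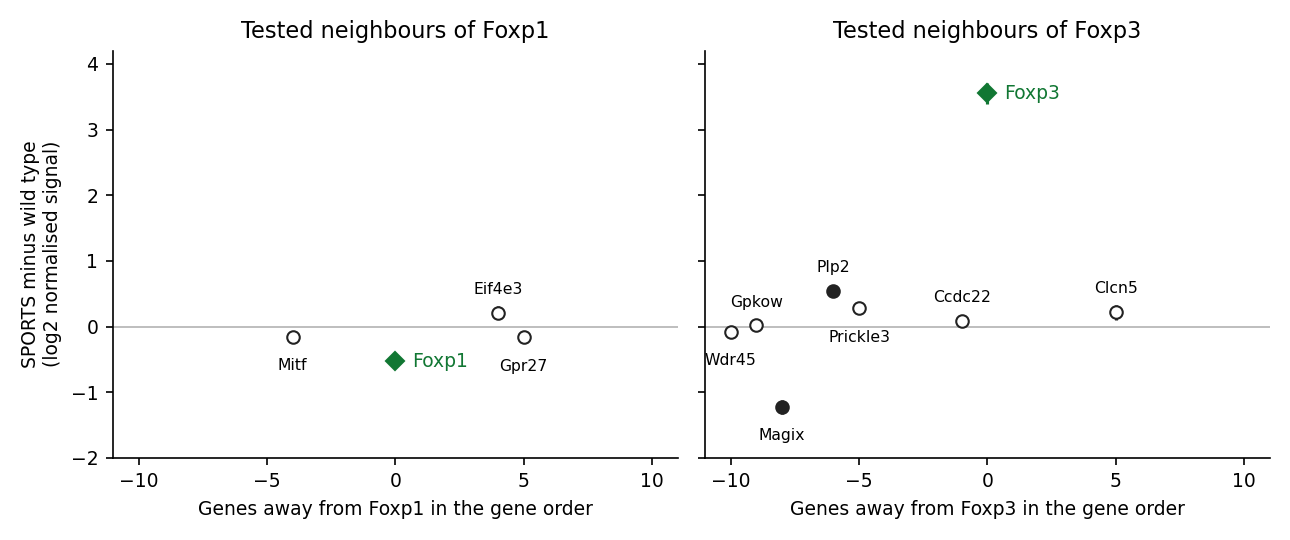
Difference of each tested gene within 10 genes of Foxp1 and of Foxp3, against its place in the gene order. Circles are neighbours (filled where limma called them), green diamonds the FoxP genes, and bars the SE; the neighbours of Foxp3 lie between -1.23 and 0.54 and Foxp3 at 3.55.

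Foxp3 was next set beside genes that mark T cells. Of 24 markers 22 had a matched probe and 8 could be tested, of which 1 rose and 2 fell. Limma called 37.5% of the tested markers, beside 24.3% of all tested genes. The median was -0.10, beside 0.01 over all genes tested. Zap70, a kinase of the T cell receptor pathway, was at -1.46, -1.49 and -1.54 in wild type and at -3.09, -3.12 and -3.18 in SPORTS. It fell by 1.63 ± 0.04 (SE), 3.10-fold, and the groups were far apart (limma adjusted p = 4.42e-05). Its call was kept under all 15 alternatives. The gene that rose was Thy1, a surface protein gene also made in neurons, at 0.16 ± 0.04 (adjusted p = 0.0263), and it was not called with any 1 array left out, in the row-blocked fit or when dim probes were kept (adjusted p from 0.00831 to 0.171 among alternatives). The receptor subunit gene Cd3d had a difference of -0.06 ± 0.06 and the T cell kinase gene Lck one of -0.13 ± 0.17, and neither passed. Of the 14 matched markers that could not be tested, 8 were above background on no array, among them Cd2, Cd28, Cd247 and Cd8a. Cd3e, another receptor subunit gene, was so on 1 SPORTS array, and Cd3g and Cd4 each on 2 arrays of each group. The summed level of the 8 tested markers, in units of the array's 75th percentile, ran from 2.76 to 2.88 in wild type, and in SPORTS from 2.65 to 2.73. Thy1 made up most of this sum (1.75 to 1.83 in wild type, 1.98 to 2.03 in SPORTS), and the other 7 genes came to 1.01 to 1.06 against 0.648 to 0.707. The part of T cells in the Foxp3 difference was not tested.

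Regulatory T cells are the cells in which Foxp3 is best known. Of 36 genes linked to them, 30 had a matched probe and 19 were tested, of which 2 rose and 2 fell (21.1% called, beside 24.3% of all tested genes). The median was 0.04, beside 0.01 over all genes tested, and lay between -0.12 and 0.06 with any 1 array left out, so that its sign was not stable. Runx1, which encodes a DNA-binding partner of Foxp3, rose by 0.35 ± 0.04 (SE), and Stat5a, which carries interleukin-2 signals, rose by 0.32 ± 0.05. Capg, an actin-capping gene, fell by 0.58 ± 0.08 and Ebi3, a cytokine subunit gene, by 0.34 ± 0.06. In the row-blocked fit Capg kept its call, as the 1 gene called, and Runx1, Stat5a and Ebi3 lost theirs. Their adjusted p there was 0.0512, 0.0865 and 0.0792, the highest among the alternatives, which began at 0.00168, 0.00377 and 0.00168. Of the 11 genes of this list with a matched probe that were too dim to test, 10 were above background on 0 of 6 arrays and 1 on a single wild type array. Il2ra, the interleukin-2 receptor alpha chain gene, was among the 10, with the inhibitory receptor gene Ctla4, Icos, Ikzf2 and the cytokine gene Il10. Other genes linked to these cells were bright enough to test, such as Tnfrsf4 (0.33 ± 0.34) and Nrp1 (0.18 ± 0.06), which did not pass. Gata3 was at -6.11 ± 1.08 (SD, n = 3) in wild type, where 1 array was above background, and at -4.52 ± 0.13 in SPORTS, and did not pass (limma adjusted p = 0.0852). The summed level of the 19 tested genes lay at 10.2 to 11 in wild type, and in SPORTS at 8.43 to 9.03. Of this sum the cytokine receptor gene Il2rg, which did not pass (-0.40 ± 0.13, adjusted p = 0.0797), made up 4.94 to 6.06 in wild type against 3.70 to 4.88, and the other 18 genes 4.73 to 5.57 against 4.02 to 5.33, where the groups overlapped.

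Of markers of other lymphoid, myeloid and red blood cells, 14 of the 22 with a matched probe were tested. The monocyte receptor gene Cd14 rose by 0.44 ± 0.10 (SE, limma adjusted p = 0.0340) and none fell, with a median of 0.08. That was 7.14% called, beside 24.3% of all tested genes. At an unadjusted p under 0.05, 4 were higher and 0 lower. With normexp correction the rise of Cd14 was 0.25. The antigen presentation gene Cd74 (0.36 ± 0.13) and the myeloid genes S100a8 (0.80 ± 0.25) and S100a9 (0.68 ± 0.26) had every SPORTS array above every wild type array but did not pass the adjusted test. That order was seen in 21.4% of all tested probes, and S100a8 was above background on 2 of 3 wild type arrays. Cd14 was not called in the row-blocked fit, when dim probes were kept, or when any 1 array other than that of SPORTS replicate 2 was left out (adjusted p from 0.00988 to 0.133 among alternatives). Limma called 0 markers of this list without wild type replicate 2 or 3 or SPORTS replicate 1 or 3. Of the microglia and macrophage genes, Cx3cr1 had a difference of -0.19 ± 0.16, Cd68 of 0.20 ± 0.17 and P2ry12 of 0.07 ± 0.04, and none of these passed. The list's summed level lay at 104 to 128 in wild type, and in SPORTS at 87.1 to 145. The 2 globin genes made up nearly all of it (96.3 to 120 and 79.1 to 138), and the other 12 genes came to 7.54 to 7.78 against 7.42 to 8.01.

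Foxp1 was set beside genes of the cells in which it is known to be abundant. Of 16 tested genes of striatal projection neurons, 15 fell and 0 rose (0 at an unadjusted p under 0.05). The median was -1.56, beside 0.01 over all genes tested. Limma called 93.8% of this list, beside 24.3% of all tested genes (11.4% lower). The adenosine receptor gene Adora2a fell by 3.08 ± 0.26 (SE) and the G protein regulator gene Rgs9 by 2.77 ± 0.10. Adora2a was lowest in SPORTS replicate 1, at -4.09, against -3.13 and -3.29 in the other SPORTS arrays. The homeobox gene Isl1 and the dopamine receptor gene Drd1 fell as well, but only 1 SPORTS array was above background for either. This makes their sizes uncertain, and the same held for Six3 (-1.28 ± 0.19). These genes entered the test through wild type, where they were brighter. When signal above background was required of all 6 arrays, 12 genes of the list were called. Over the alternatives Isl1 ran from -3.35 to -1.02 and Drd1 from -2.79 to -1.18. Isl1 was not called in the row-blocked fit, when dim probes were kept, or without wild type replicate 1, 2 or 3 or SPORTS replicate 2 (adjusted p from 0.000192 to 0.137). The difference of Foxp1, -0.53, was smaller in size than that of all but one of the genes of this list that fell; Zfp503, a striatal zinc finger gene, fell by 0.29 ± 0.04. The list's summed level lay at 35.5 to 41.1 in wild type, and in SPORTS at 12.4 to 13.7. In bulk tissue, fewer cells of a type and less RNA per cell cannot be told apart, and the part of striatal tissue in the Foxp1 difference was not tested.

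Foxp1 is also made in the cortex. Of 17 cortical layer genes tested, 6 fell and 0 rose (0 at an unadjusted p under 0.05), with a median of -0.05. That was 35.3% called, beside 24.3% of all tested genes (11.4% lower). Syt6, a synaptotagmin gene of deep layers, fell by 0.70 ± 0.03 (SE; limma adjusted p = 0.000167), and by 0.28 with normexp correction. Tbr1, a deep-layer transcription factor gene, fell by 0.68 ± 0.18 (0.32 with normexp correction), the calmodulin-binding gene Pcp4 by 0.51 ± 0.10 and the subplate gene Ccn2 by 0.39 ± 0.08. The last 3 were not called in the row-blocked fit, when dim probes were kept, or without wild type replicate 1 or 2 (adjusted p over the alternatives up to 0.259, 0.164 and 0.165, from 0.0239, 0.0118 and 0.00387). That of Tbr1 also ended with quantile normalisation and without any other array, and that of Pcp4 without wild type replicate 3 or SPORTS replicate 2. The number called was 2 without wild type replicate 1 or 2, 3 without SPORTS replicate 2 and 1 in the row-blocked fit. The genes Fezf2 and Crym had differences of -0.22 and -0.04 and did not pass.

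Of 15 tested genes of thalamus and Purkinje cells, tissues in which Foxp2 is known to be made, 2 rose and 1 fell. That was 20% called, beside 24.3% of all tested genes. The median was 0.25, and 0.10 over the same genes without SPORTS replicate 1, the array that stood apart on Pcp2 and Car8. The homeobox gene Lhx1 rose by 1.85 ± 0.30 (SE; 0.95 with normexp correction), the glutamate transporter gene Slc17a6 by 0.91 ± 0.15, and the calcium channel gene Itpr1 fell by 0.32 ± 0.08. Limma called 0 of the 15 in the row-blocked fit and 1 without SPORTS replicate 2.

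**Figure D3:**
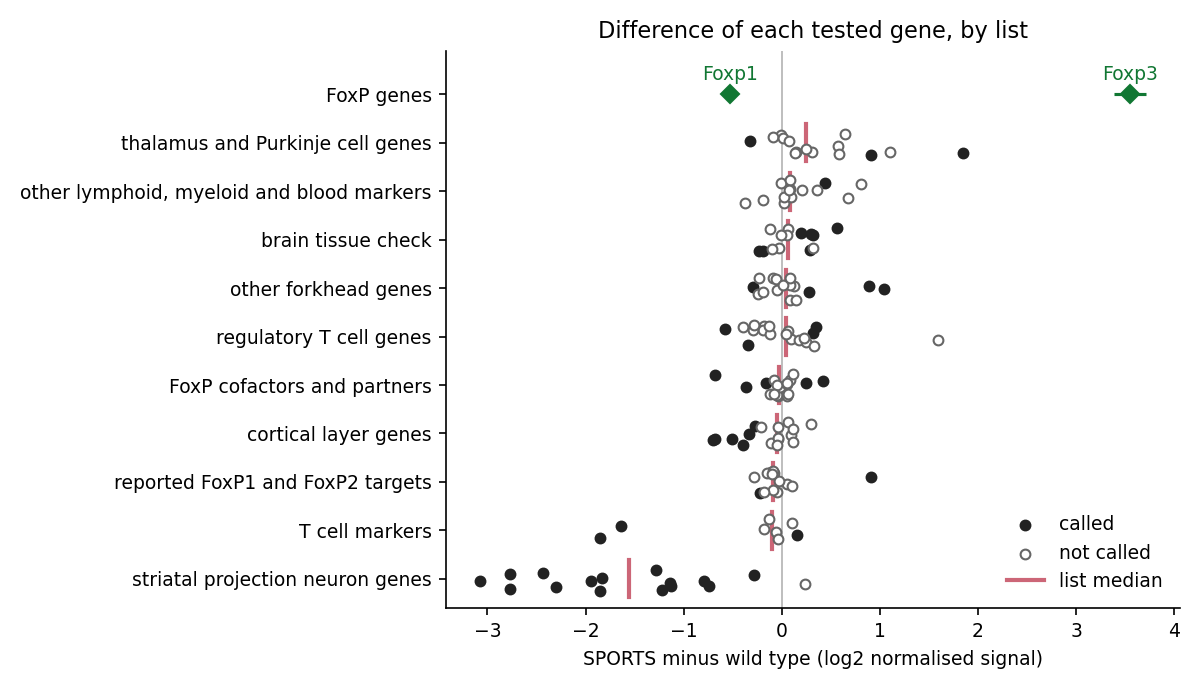
Difference between SPORTS and wild type for each tested gene of the lists, ordered by list median. Points are genes (filled where limma called them), red lines medians and green diamonds Foxp1 and Foxp3 with their SE; the striatal list has a median of -1.56 and the T cell list one of -0.10.

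The FoxP genes belong to a larger family. Of 42 other forkhead genes in RefSeq 24 had a matched probe and 16 were tested, of which 3 rose and 1 fell. That was 4 of 16, beside 24.3% of all genes. The median was 0.04, and -0.02 to 0.05 with any 1 array left out. Foxb1, a gene of hypothalamus and hindbrain, rose by 1.04 ± 0.27 (SE) and Foxc2, a gene of mesenchyme and vessels, by 0.89 ± 0.19. With normexp correction these were 0.63 and 0.56. Foxn3 rose by 0.28 ± 0.04 and Foxk2, a widely active gene, fell by 0.30 ± 0.04. Foxn3 and Foxk2 lost their calls in the row-blocked fit (adjusted p = 0.0527 and 0.0582, the highest among the alternatives, which began at 0.000712 and 0.000819). Foxb1 lost its call there, when dim probes were kept, and with any array left out other than that of SPORTS replicate 1 (0.0257 to 0.300). Foxc2 lost its call when dim probes were kept and without wild type replicate 2 or 3 or SPORTS replicate 1 or 2 (0.00819 to 0.0697). The number called was 2 without wild type replicate 2 or 3 or SPORTS replicate 2, and 1 in the row-blocked fit. None of the 16 differed by as much as Foxp3.

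FoxP proteins work with cofactors, many of them parts of repressor complexes. Of 18 tested, 2 rose and 3 fell (median -0.03; 27.8% called, beside 24.3% of all genes). Nr2f2, a nuclear receptor gene, rose by 0.42 ± 0.05 (SE) under every alternative. Ctbp2, a corepressor gene, rose by 0.24 ± 0.05, and Mta2, a gene of the NuRD repressor complex, fell by 0.36 ± 0.09, beside Tbr1 given above. The third fall was that of Gatad2b, another NuRD gene, at -0.16 ± 0.04. Ctbp2 and Mta2 lost their calls in the row-blocked fit, when dim probes were kept, and without wild type replicate 1 or 3 or SPORTS replicate 3 (adjusted p over the alternatives up to 0.132 and 0.122, from 0.00405 and 0.0137). Ctbp2 also lost it without SPORTS replicate 1 and Mta2 without SPORTS replicate 2. The number called was 1 without wild type replicate 1 or 3 or SPORTS replicate 3, 2 without SPORTS replicate 1 or 2, 3 without wild type replicate 2 and 1 in the row-blocked fit.

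Genes reported as targets of FoxP1 or FoxP2 were looked at last among the lists. Of 14 tested, 1 rose and 1 fell (14.3% called, beside 24.3% of all tested genes), with a median of -0.09. The gene that rose is the Slc17a6 given above among the thalamus and Purkinje cell genes, measured by the same probe. Slc17a6, the gene of a vesicular glutamate transporter, rose 1.87-fold, and it was not called in the row-blocked fit or without SPORTS replicate 2 (adjusted p from 0.00396 to 0.0964 among alternatives). Efnb3, an ephrin gene of axon guidance, fell by 0.23 ± 0.05 (SE). It was not called in the row-blocked fit, when dim probes were kept, or with any array left out other than that of wild type replicate 3 (adjusted p from 0.00512 to 0.205). Srpx2, a synapse gene repressed by FoxP2, had a difference of -0.28 ± 0.09 (limma adjusted p = 0.0829), and the lipoprotein receptor gene Vldlr one of -0.10 ± 0.06. The number called was 0 in the row-blocked fit and without SPORTS replicate 2, and 1 without wild type replicate 1 or 2 or SPORTS replicate 1 or 3.

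The genes most like each FoxP gene over the 6 arrays were found by Pearson correlation, in which the gap between the 2 groups weighs most. For Foxp1 these were Spata2L (r = 0.9998), Dpf1, a neuronal chromatin remodelling gene (r = 0.999), Hps4, an organelle biogenesis gene (r = 0.999), Ptgfrn (r = 0.998) and Tnr, an extracellular matrix gene of perineuronal nets (r = 0.998). Spata2L was at 2.23, 2.10 and 2.23 in wild type and at 1.64, 1.59 and 1.51 in SPORTS, so that wild type replicate 2 was the lowest of its group and SPORTS replicate 3 of the other, as for Foxp1. For Foxp3 they included the proton pump subunit gene Atp6v1c1, the acyl-CoA thioesterase gene Acot1, Katnal1, a microtubule-severing gene, and the zinc transporter gene Slc39a12 (r = 0.999 each). Slc39a12 was at -3.44, -3.07 and -2.90 in wild type and at 0.13, 0.14 and 0.07 in SPORTS. Atp6v1c1 differed by 0.34 ± 0.03 (SE), Acot1 by 0.72 ± 0.04 and Katnal1 by 0.95 ± 0.05, each less than Slc39a12 at 3.25 ± 0.14 and Foxp3 at 3.55. Genes with symbols starting with LOC or RGD were left out of this search. Among the remaining genes, a correlation above 0.99 was reached by 79 for Foxp1 and by 105 for Foxp3. The arrays of a group share a slide row in part.

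**Figure D4:**
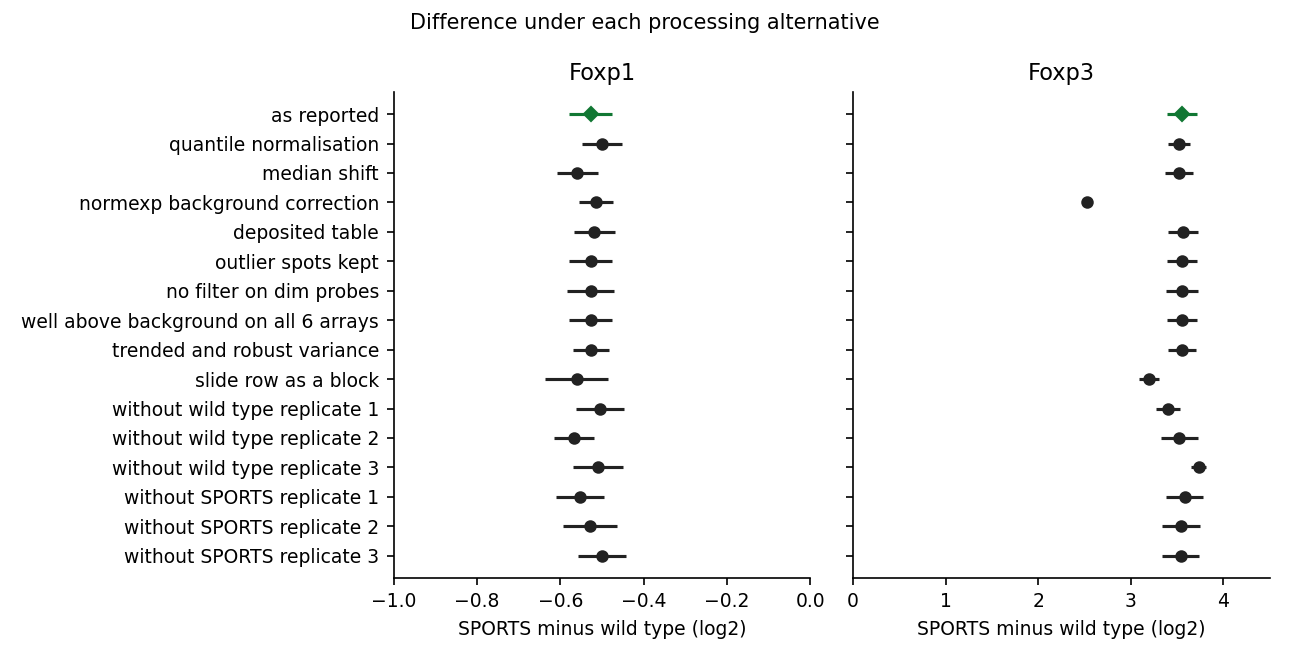
Difference of Foxp1 and of Foxp3 as reported (green diamonds) and under each processing alternative (circles), with bars for the SE. Foxp1 lies between -0.57 and -0.50 throughout, and Foxp3 between 2.53, with normexp correction, and 3.73, without wild type replicate 3.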

How the data were processed

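Per the file headers, the authors scanned each array with 1 colour and quantified intensity with Agilent Feature Extraction 10.10.1.1, with background subtraction and spatial detrending in the processed signal; the array design is on build rn4. The authors' deposited series table equals these intensities multiplied by a constant for each array (1.38 to 1.47); how it was set is not stated in those headers.

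Control spots and outlier-flagged readings (3075) were left out, and log2 processed signals of a probe's spots were averaged, minus the log2 of the array's 75th percentile over non-control spots. A probe entered the test when more than 0.5 of its spots carried the well-above-background flag on each array of a group, in either group. Transcript identifiers were matched to RefSeq genes (18005 of 30367 probes), and genes with several tested probes were represented by the brightest on average. A gene without a matched probe may still be on the array, and a matched gene may have further probes among those without a match. The probe design and the RefSeq table differ in build, so RefSeq served for names, gene order and start regions.

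Groups were compared with limma 3.58.1 in R 4.3.3, two-sided, Benjamini-Hochberg over all tested probes, threshold 0.05; the procedure was tested on simulated data. The members and lists were chosen with earlier results of these data known. Named were all member probes, up to 4 called genes per list with the largest differences, called and nearest neighbours, and the 5 genes most correlated with each member; some genes that this rule names are not reported here. Genes named beyond this rule, such as markers not above background, and the 2 motifs were chosen after their values or letters were seen. The alternatives comprised a median shift, quantile normalisation, normexp with an offset of 50 (on median brightness, since no mean is given) followed by quantile normalisation, the deposited table, 2 other filters, outlier spots kept, a trended robust variance, the slide row as a block and each array left out.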

Additional observations from a re-analysis of the deposited data

How the results depend on the processing

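Over the 15 alternatives Foxp1 moved by less than the spread between replicates in 15, and Foxp3 in 13, the others being normexp (2.53) and the fit with slide row as block, called row-blocked (3.20). Leaving out 1 array gave Foxp3 3.403 to 3.73 and Foxp1 -0.57 to -0.50. Over all tested probes, 2284 were higher and 2081 lower; without the filter on dim probes these were 1234 and 1108, and in the row-blocked fit 740 and 856. Leaving out 1 array gave 1297 to 1625 higher and 1001 to 1558 lower.

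Without the filter, limma called 1 cofactor, 1 target, 2 cortical, 0 blood and lymphoid, 3 brain marker and 2 forkhead genes. The row-blocked fit called 1 regulatory T cell gene, 1 cofactor, 0 targets, 1 cortical, 0 thalamus and Purkinje, 0 brain marker and 1 forkhead gene and 1 neighbour of Foxp3. Trended robust variance called 2 blood and lymphoid markers, and a filter on all 6 arrays 1 neighbour of Foxp3. Leaving out 1 array gave 1 to 3 cofactors, 0 to 2 targets, 2 to 5 cortical, 1 to 4 thalamus and Purkinje, 0 to 1 blood and lymphoid, 3 to 6 brain marker and 2 to 3 forkhead genes and 0 to 1 neighbours of Foxp1. The T cell list (2 to 3) and the striatal list (12 to 15) stayed within 1.5 times the reported counts in all of these alternatives. The 53 named genes include some, such as Mitf and Gpr85, that were not called to begin with. Of the called ones alone, 23 lost their call with the block and 13 without the filter. No called difference changed sign, whereas the uncalled neighbours Gpr85 (-0.01, from -0.10 to 0.04) and RGD1565959 (0.04, from -0.18 to 0.15) did. No paired analysis was possible because the labels give no pairing between rats of the 2 groups. The cause of these changes was not tested. Dim signal limits the fold of Foxp3, whose wild type spots were dim.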
